A study of Mus musculus with 16 samples.

Results

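The 34 interferon-stimulated genes described here are a set of named antiviral and immune genes, listed by symbol; the rule uses no measured value. Each was matched to microarray probes through the transcript accession of the probe. All 34 had a probe and all 34 entered the tests, out of 20145 genes with a probe and 14574 genes tested. The members fall into 6 roles: 4 transcription factors, 6 nucleic acid sensors, 6 genes of the ISG15 and ubiquitin pathway, 6 genes of the IFIT and OAS families, 6 other effectors and 6 GTPases.

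RNA on ribosomes from mouse kidney glomeruli was hybridised to 16 single-colour Agilent arrays, 4 in each of 4 groups, all on the C57BL/6N background. Every mouse carried the RiboTag allele, which puts an HA epitope on a ribosomal protein where Cre recombinase has acted, together with Nphs1-Cre, whose promoter confines Cre to podocytes, the filtering epithelial cells of the glomerulus. In uninjured Nphs1-RiboTag mice, podocyte RNA came from polysomes pulled down with antibody to HA, and glomerular RNA came from polysomes of all glomerular cells that had not been precipitated. The other groups are podocyte RNA of Nphs1-RiboTag-NEP25 mice taken 4 days and 7 days after LMB2, given once at 0.625 ng per g of body weight by the tail vein. NEP25 mice bear human CD25 on their podocytes, and LMB2 is an immunotoxin directed against CD25. Age and sex are not given in the sources used here. The labels do not say that the 4 arrays of a group came from separate animals, so the p-values measure only the spread between these samples, which may be technical. The uninjured mice lacked the NEP25 transgene and no injection is stated for them, so the transgene and the toxin cannot be told apart in comparisons with normal podocytes. Both uninjured groups were on slide 1 and both LMB2 groups on slide 2, so slide and injury cannot be told apart there either. The podocyte against glomerulus and the day 7 against day 4 comparisons each lie within 1 slide. Only the podocyte RNA was precipitated, so cell source and pull-down cannot be told apart between podocyte and glomerular RNA.

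Interferons are secreted proteins that cells release on sensing foreign or misplaced nucleic acid. Type I and type III interferons act through a complex that includes STAT2 and IRF9 on the interferon-stimulated response element, and interferon gamma acts on the gamma-activated sequence, with IRF1 as an early target that binds response elements in turn. The induced genes encode RNA sensors, enzymes that stall viral RNA or protein synthesis, the ubiquitin-like protein ISG15 and GTPases that attack the vacuoles of intracellular pathogens. In the glomerulus, endothelial cells and leukocytes are well known to express many of them at rest.

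Promoters of some members on which the results turn are shown first, chosen among those that hold an interferon motif. They are the 130 bases before the annotated transcription start (RefSeq, GRCm38.p6), 5′ to 3′ on the strand of the gene, and capitals mark the core of the interferon-stimulated response element on either strand (GAAA, any 2 bases, GAAA), except in Irf1, where they mark the gamma-activated sequence TTCNNNGAA. Isg15 and Irf1 rose after LMB2, as did Gbp2 in most settings. Rsad2 and Bst2 were far lower in podocyte than in glomerular RNA. Igtp and Irgm2 were higher in podocyte RNA and lower 7 days after LMB2.
Isg15 (chr4:156200819-156200948, minus strand): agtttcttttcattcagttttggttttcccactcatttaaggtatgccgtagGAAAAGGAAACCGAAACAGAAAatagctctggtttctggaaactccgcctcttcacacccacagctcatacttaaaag
Irf1 (chr11:53769884-53770013, plus strand): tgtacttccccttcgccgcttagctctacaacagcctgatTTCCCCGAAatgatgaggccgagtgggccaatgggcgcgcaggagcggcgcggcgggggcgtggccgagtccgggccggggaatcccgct
Gbp2 (chr3:142620533-142620662, plus strand): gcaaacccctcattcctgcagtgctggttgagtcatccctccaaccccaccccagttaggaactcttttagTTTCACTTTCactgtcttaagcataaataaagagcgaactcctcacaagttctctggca
Rsad2 (chr12:26456453-26456582, minus strand): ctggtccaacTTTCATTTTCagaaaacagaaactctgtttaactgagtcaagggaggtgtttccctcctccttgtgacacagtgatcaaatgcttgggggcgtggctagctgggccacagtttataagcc
Bst2 (chr8:71537473-71537602, minus strand): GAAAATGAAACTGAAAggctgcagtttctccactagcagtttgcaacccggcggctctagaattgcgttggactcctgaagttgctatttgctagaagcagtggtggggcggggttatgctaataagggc
Igtp (chr11:58199426-58199555, plus strand): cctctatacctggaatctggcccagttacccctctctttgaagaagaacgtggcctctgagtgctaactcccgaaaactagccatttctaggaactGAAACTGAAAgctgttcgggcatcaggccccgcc
Irgm2 (chr11:58214847-58214976, plus strand): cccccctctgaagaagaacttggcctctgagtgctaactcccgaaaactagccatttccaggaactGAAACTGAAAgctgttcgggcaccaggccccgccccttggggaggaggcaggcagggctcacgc

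In Isg15, 3 overlapping copies of the core begin 78, 72 and 66 bases before the start. Bst2 holds 2 overlapping copies that begin 130 and 124 bases before it. Igtp and Irgm2 lie beside each other on chromosome 11. From 250 bases before to 50 bases after the start, they share a run of 61 identical bases that is not wholly within the stretches shown. The core lies in another shared run of 29 bases. Promoters from 250 bases before to 50 bases after the start were in the RefSeq table for 28 of the 34 members; Usp18, Zbp1, Iigp1, Dhx58, Parp9 and Parp14 had no entry. The response element core, searched on both strands with overlaps allowed, was in the promoter of 15 of these 28 genes (53.6%), against 3.99% of the 27025 genes in the table. TTCNNNGAA was in 9 of the 28 (32.1%), against 9.55% of all genes. The core did not divide the members by their difference between podocyte and glomerular RNA: it was in 7 and missing from 6 of the members called lower, in 6 and missing from 6 of those not called, and in 2 and missing from 1 of those called higher. A match is a string of letters in this window, and binding was not measured.

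Levels below are log2 processed intensities minus the 75th percentile of the same array, so that 0 is the intensity below which 75% of the spots lie. A level is comparable between arrays for a given gene and not between genes. A gene is called when its adjusted p is under 0.05 in limma's moderated test, fitted to all 16 arrays and adjusted by Benjamini-Hochberg over all 14574 genes, and a difference is given with its standard error (SE). The share of spots that passed the scanner's background test ranged from 49.25% to 57.53%, and no spot was saturated. The number of arrays limits the precision. On all 16 arrays, 33 of the 34 members were well above background, and Irf7 was so on 3 of the 4 arrays at day 4. The defining podocyte marker Nphs1 was bright in podocyte RNA (7.52 or above on the normal arrays). Of the defining markers of other cells, Ptprc (leukocyte) was at -6.28 to -4.27 and Pecam1 (endothelial) at -2.21 to -1.13 on the podocyte arrays, while some genes of both marker lists were bright there, such as Siglech at 5.60 to 6.31 and Ehd3 at 2.76 to 4.98.

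In uninjured mice, most interferon-stimulated effectors were lower in podocyte RNA than in glomerular RNA. In the fit without pairing, 7 of the 10 members that are transcription factors or nucleic acid sensors did not pass the test. Of the 34 members, 18 were called lower (52.9%), against 27.5% of all genes tested, and 3 were called higher (8.82%), against 51.6% of all genes. The arrays of the groups did not overlap for 18 lower and 4 higher members, against 25.2% and 47.8% of all genes. The median difference of the members was -1.21, against 0.38 for all genes. Each array centred on its median gave 9 higher and 18 lower members, and quantile normalization gave 2 higher and 23 lower. With the replicate number as a block, which pairs the arrays here, 3 were higher and 22 lower, the added genes being Irf9, Stat2, Dtx3l and Eif2ak2. Endothelial markers were lower in podocyte RNA for 20 of 20 genes (summed linear level relative to the percentile of 67.9 to 121 in podocyte RNA and 1210 to 1490 in glomerular RNA), and leukocyte markers for 16 of 21 (81.2 to 93.5 against 91.3 to 181). The leukocyte sums include the bright Siglech, and the median log2 difference of the 21 leukocyte markers was -4.24. The part of both marker lists in the difference of the members was not tested. In such bulk RNA, fewer cells of a type and less RNA per cell cannot be told apart.

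**Figure D1:**
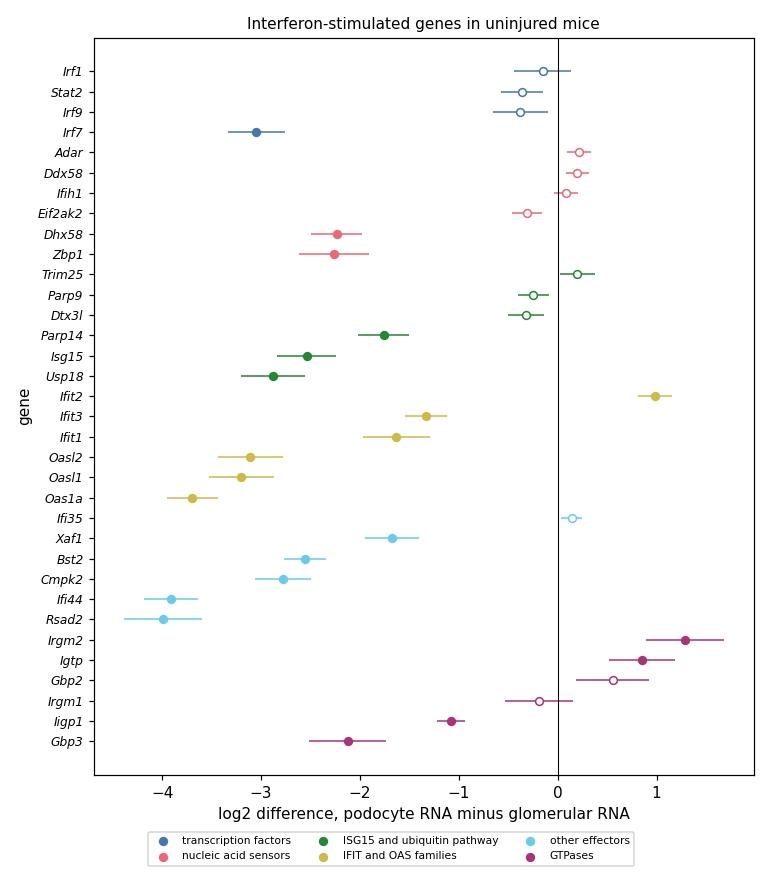
Difference between podocyte and glomerular RNA of uninjured mice (horizontal axis, log2) for each of the 34 members (vertical axis), coloured by role, with bars of 1 SE from the fit and filled points for genes called at an adjusted p under 0.05. The points reach from -3.99 for Rsad2 to 1.28 for Irgm2, with 18 filled points left of 0 and 3 right of it.

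Among the transcription factors, Irf7, which drives transcription of the interferon genes themselves, stood at -4.16, -3.63, -3.79 and -3.85 on the 4 normal podocyte arrays and at -0.91, -0.26, -1.14 and -0.92 on the 4 glomerular arrays. The groups did not overlap, and the difference was -3.05 ± 0.29 (SE; adjusted p = 2.21e-07, limma). The members that carry the signal from the receptor differed less. Irf9, the DNA-binding partner of STAT2, differed by -0.38 ± 0.28, Stat2 by -0.36 ± 0.21 and Irf1 by -0.15 ± 0.29. None of them was called in the fit without pairing, but the replicate block called Irf9 and Stat2 lower.

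The nucleic acid sensors divided. Dhx58, which encodes the RIG-I-like regulator LGP2, was at -4.22, -3.76, -2.79 and -3.87 in podocyte RNA and at -1.45, -1.29, -1.15 and -1.81 in glomerular RNA, with no overlap and a difference of -2.23 ± 0.26 (adjusted p = 1.84e-06, limma). Zbp1, a sensor of left-handed nucleic acid linked to necroptosis, was lower by a similar amount, at -2.26 ± 0.35 (adjusted p = 3.54e-05, limma). The other 4 were not called: Ddx58, which encodes the RNA sensor RIG-I, at 0.20 ± 0.12, Ifih1, which encodes MDA5, at 0.08 ± 0.12, Adar, which edits double-stranded RNA, at 0.22 ± 0.12, and Eif2ak2, which encodes the kinase PKR, at -0.31 ± 0.15. With each array centred on its median, Ddx58, Ifih1 and Adar were called higher, at 0.52, 0.40 and 0.54. Without that centring, other probes gave -0.46 for Ddx58, -0.04 for Ifih1 and 0.27 for Adar. The direction of Ddx58 thus differed between its probes, and that of Ifih1 did so with both values near 0. With the replicate block, Eif2ak2 was called lower.

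In the ISG15 and ubiquitin pathway, Isg15 itself, the ubiquitin-like modifier, stood at 1.96, 2.09, 2.27 and 1.62 in podocyte RNA and at 4.62, 4.62, 4.90 and 3.95 in glomerular RNA. Every glomerular array was above every podocyte array, and the difference was -2.54 ± 0.30, a 5.81-fold lower level (adjusted p = 1.99e-06, limma). Usp18, which strips ISG15 from proteins and dampens the type I receptor, was lower by 2.88 on the log2 scale, from 1.23 to 1.82 on the glomerular arrays to -1.90 to -0.64 on the podocyte arrays. Parp14, an ADP-ribosyltransferase, was called lower at -1.76 ± 0.26. Parp9 and Dtx3l, near it on chromosome 16, whose proteins work as a complex, were not called at -0.24 ± 0.16 and -0.32 ± 0.18. Trim25, a ubiquitin ligase that activates RIG-I, was not called either, at 0.20 ± 0.18. With the replicate block, Dtx3l was called lower.

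The largest differences were among the direct antiviral effectors. Rsad2 encodes viperin, which makes a chain-terminating nucleotide. It stood at -1.32, -1.12, 0.48 and -0.81 in podocyte RNA and at 3.22, 2.80, 4.01 and 3.18 in glomerular RNA, a difference of -3.99 ± 0.39 or 15.9-fold (adjusted p = 3.43e-07, limma). Ifi44 was at -1.51, -1.61, -0.25 and -1.21 against 3.30, 2.59, 2.89 and 2.29, a difference of -3.91 ± 0.27 (adjusted p = 1.05e-08, limma). Oas1a, a synthase of the oligoadenylates that activate RNase L, was at -0.55, -0.14, 0.61 and -0.37 against 3.90, 3.84, 3.64 and 2.96, a difference of -3.70 ± 0.26 (adjusted p = 1.18e-08, limma). None of these 3 genes overlapped between the groups, and in each the third normal podocyte array was the highest of its group. Oasl1 and Oasl2 were lower by 3.20 and 3.11 on the log2 scale, Cmpk2, a nucleotide kinase gene beside Rsad2 on chromosome 12, by 2.78, and Bst2, which encodes the virion-holding membrane protein tetherin, by 2.56. Xaf1, a gene linked to apoptosis, differed by -1.68 ± 0.28, and Ifi35 did not pass the test at 0.14 ± 0.11.

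The IFIT family, whose proteins bind viral RNA ends, split in direction although its members lie close together on chromosome 19. Ifit1 and Ifit3 were lower in podocyte RNA, at -1.63 ± 0.34 and -1.33 ± 0.21. Ifit2 went the other way: its podocyte values of 1.43, 1.21, 0.96 and 1.11 were all above its glomerular values of 0.16, 0.24, 0.38 and 0.00, a difference of 0.98 ± 0.17 (adjusted p = 9.43e-05, limma).

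The GTPases also split. Gbp3, a guanylate-binding protein gene, and Iigp1, an effector of the immunity-related GTPases, were lower in podocyte RNA, at -2.12 ± 0.39 and -1.08 ± 0.14. Irgm2, a regulator of that family, was at 3.49, 3.88, 4.38 and 4.07 in podocyte RNA and at 2.45, 2.79, 3.00 and 2.44 in glomerular RNA, a difference of 1.28 ± 0.39 with no overlap (adjusted p = 0.0078, limma). Igtp, its neighbour on chromosome 11 and another regulator, was at 2.95, 3.23, 3.47 and 3.16 against 2.33, 2.45, 2.59 and 2.04, a difference of 0.85 ± 0.34 (adjusted p = 0.031, limma). The groups did not overlap for Igtp, but the call was lost in 6 of 19 other settings, quantile normalization among them at 0.52. Gbp2 at 0.56 ± 0.37 and Irgm1 at -0.19 ± 0.34 were not called.

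At 4 days after LMB2, podocyte RNA did not show a general rise of the set. Irf1, Isg15 and Gbp2 were called higher, and Oas1a, Ifi44, Iigp1, Adar and Ifi35 were called lower. The 3 higher members are 8.82% of the set, against 12.3% of all genes, and the 5 lower members are 14.7%, against 19.9%, so neither count stands above the background. Groups that did not overlap were seen for 3 higher and 6 lower members, against 12.1% and 20.9% of all genes. The median difference of the members was -0.25, against -0.12 for all genes. With each array centred on its median, 3 were higher and 10 lower, and the mean of the probes of a gene gave 3 and 3. Of the marker lists, leukocyte genes were higher for 4 of 21 (summed level 93.7 to 100, normal 81.2 to 93.5), endothelial genes lower for 4 of 20 and podocyte genes lower for 5 of 17, and their part in the changes was not tested. The leukocyte sums include the bright Siglech. Relative to the normal podocyte mean, the log2 mean of the leukocyte list was -0.24 to 0.92 (normal arrays -0.28 to 0.57). Slide and injury cannot be told apart in either comparison with normal podocytes.

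Irf1 had the largest rise. Its values were 3.72, 3.89, 4.54 and 3.68 on the normal arrays and 5.73, 6.80, 6.42 and 7.21 at day 4, with no overlap, a difference of 2.58 ± 0.29 or 5.99-fold (adjusted p = 1.04e-05, limma). Isg15 went from 1.96, 2.09, 2.27 and 1.62 to 3.14, 3.41, 4.11 and 4.28, also without overlap, a difference of 1.75 ± 0.30 or 3.37-fold (adjusted p = 0.000464, limma). Both genes were called in all 19 other settings. A further probe of Isg15 gave 1.71. Gbp2 was at 2.06, 1.04, 2.75 and 2.39 on the normal arrays and at 2.55, 4.16, 2.99 and 3.48 at day 4. The groups overlapped, and the difference of 1.23 ± 0.37 (adjusted p = 0.0201, limma) was no longer called in 5 of 19 other settings, among them without normal replicate 2 (0.89) and without day 4 replicate 2 (0.95) or 4 (1.17).

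The members that fell at day 4 were effectors and an RNA editor. Ifi44 moved from -1.51, -1.61, -0.25 and -1.21 to -2.20, -2.29, -2.25 and -2.14, a difference of -1.08 ± 0.27 (adjusted p = 0.00744, limma). Oas1a moved from -0.55, -0.14, 0.61 and -0.37 to -1.09, -0.96, -1.12 and -1.48, a difference of -1.05 ± 0.26 (adjusted p = 0.00662, limma). The groups did not overlap for either gene. Iigp1 at -0.49 ± 0.14, Adar at -0.47 ± 0.12 and Ifi35 at -0.39 ± 0.11 were called lower by smaller amounts, and the calls of Iigp1 and Adar were lost with the mean of their probes, at -0.34 and -0.26. Stat2 (-0.36 ± 0.21), Irf9 (0.14 ± 0.28), Irf7 (-0.30 ± 0.29), the 3 IFIT genes (0.02 to 0.26), Oasl1, Oasl2, Rsad2, Usp18 and Bst2 did not pass the test.

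Day 4 replicate 2 decided part of the account of the GTPases. Irgm2 was at 2.74, 5.07, 3.15 and 3.24 at day 4, and Igtp at 2.08, 4.24, 2.62 and 2.58, with replicate 2 above every normal array and the other 3 arrays below every normal array. Over all 4 arrays neither gene was called, at -0.41 ± 0.39 and -0.32 ± 0.34. Replicate 2 was picked for its high values of these genes, so leaving it out is a description and no support for a fall. Without replicate 2, both genes were called lower, Irgm2 at -0.91 and Igtp at -0.78. Stat2 was called lower at -0.55, Gbp2 was no longer called higher, and the set had 2 higher and 8 lower members.

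At 7 days after LMB2, 5 members were called higher and 6 lower. The higher members were Isg15, Irf1, Gbp2, Ddx58 and Dhx58, 14.7% of the set against 21.6% of all genes. The lower members were Irgm2, Igtp, Ifi44, Adar, Stat2 and Iigp1, 17.6% of the set against 36.7% of all genes. Groups did not overlap for 3 higher and 4 lower members, against 17.6% and 33% of all genes. The median of the members was 0.02, against -0.14 for all genes, and each array centred on its median turned it to -0.30, with 4 higher and 10 lower members. The normexp background gave 7 higher and 5 lower. Day 4 and day 7 share the normal podocyte arrays, so their differences from normal are not independent. Other cell type markers moved at day 7 too: 13 of 17 podocyte markers were lower (summed level 1930 to 2260, normal 2880 to 3080), 7 of 15 mesangial markers were higher (887 to 1170, normal 44.3 to 63.8, led by Tagln at 6.01 ± 0.25), and so were 6 of 6 parietal markers (3.97 to 8.72, normal 2.56 to 3.34). Their part in the changes of the members was not tested.

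Isg15 stood at 5.31, 5.27, 4.49 and 4.33 at day 7, above every normal podocyte array, a difference of 2.87 ± 0.30 or 7.28-fold (adjusted p = 1.78e-06, limma); a further probe of the gene gave 2.87. Its glomerular values of 3.95 to 4.90 lie within the span of the day 7 and day 4 values. Irf1 was at 5.30, 5.39, 4.83 and 5.14, again above every normal array, a difference of 1.21 ± 0.29 (adjusted p = 0.00231, limma). Gbp2 overlapped with normal at 3.10, 3.11, 2.45 and 3.47, and its difference of 0.97 ± 0.37 (adjusted p = 0.0357, limma) was lost in 8 of 19 other settings.

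The RNA sensors of the RIG-I family rose in part. Ddx58 was at 2.13, 2.25, 2.50 and 2.30 on the normal arrays and at 3.33, 3.43, 2.86 and 3.28 at day 7, with no overlap, a difference of 0.93 ± 0.12 (adjusted p = 1.12e-05, limma); another probe of the gene gave 0.48. Dhx58 was at -4.22, -3.76, -2.79 and -3.87 and then at -2.41, -2.56, -3.20 and -2.73. The groups overlapped through normal replicate 3, and the difference was 0.94 ± 0.26 (adjusted p = 0.00618, limma), lost in 2 of 19 other settings, 1 of them normexp background with quantile normalization at 0.26. Ifih1 stayed at 0.05 ± 0.12 and was not called. Adar fell from 1.70, 1.71, 1.72 and 1.77 to 1.36, 1.01, 0.86 and 0.97, a difference of -0.67 ± 0.12 with no overlap (adjusted p = 0.000306, limma). Another probe of Adar gave a smaller difference of -0.27.

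Of the regulatory GTPases, Irgm2 and Igtp fell. Irgm2 went from 3.49, 3.88, 4.38 and 4.07 to 2.70, 2.52, 1.94 and 2.79, a difference of -1.47 ± 0.39 (adjusted p = 0.00515, limma). Igtp went from 2.95, 3.23, 3.47 and 3.16 to 2.23, 2.25, 1.74 and 2.23, a difference of -1.09 ± 0.34 (adjusted p = 0.0123, limma). No day 7 array reached a normal array for either gene, and both were called in all 19 other settings. Irgm1, which has the same regulatory role, was not called at -0.48 ± 0.34. Ifi44 at -0.86 ± 0.27 and Iigp1 at -0.42 ± 0.14 were called lower with overlapping groups. The call of Iigp1 was lost in 5 of 19 other settings and that of Ifi44 in 1. Another probe of Iigp1 gave 0.02, but was well above background on only 1 normal podocyte array and 1 day 7 array. Stat2 at -0.52 ± 0.21 (adjusted p = 0.0461, limma) was lost in 11 of 19 other settings.

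**Figure D2:**
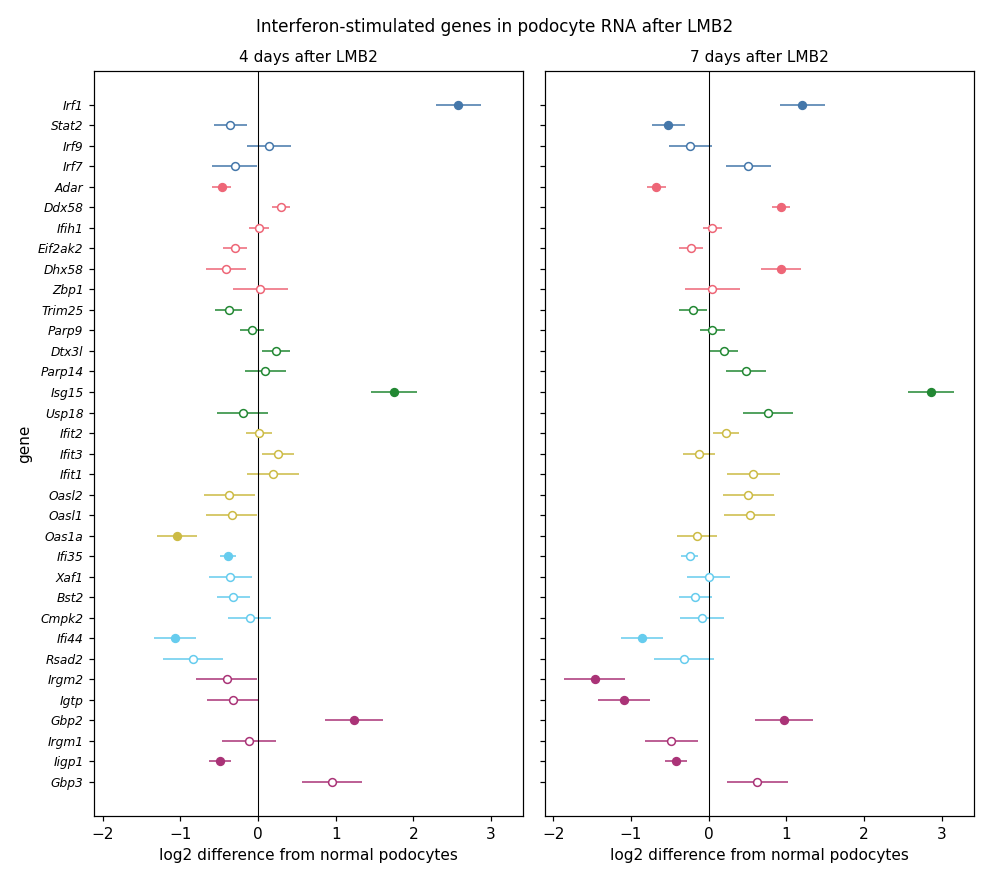
Difference from normal podocyte RNA (horizontal axes, log2) at 4 days (left) and 7 days (right) after LMB2 for the 34 members (vertical axis), coloured by role, with bars of 1 SE and filled points for called genes. Irf1 and Isg15 stand right of the others in both panels, at 2.58 and 1.75 on day 4 and at 1.21 and 2.87 on day 7, and most open points lie near 0.

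Most effectors that were low in normal podocytes were not called at day 7: Rsad2 at -0.32 ± 0.39, Cmpk2 at -0.08 ± 0.28, Bst2 at -0.17 ± 0.22, Oas1a at -0.16 ± 0.26 and Xaf1 at 0.00 ± 0.28. Other probes gave 0.40 for Cmpk2, -0.38 for Oas1a and 0.63 for Xaf1, the last well above background on only 2 day 7 arrays. Usp18 at 0.76 ± 0.33, Ifit1 at 0.58 ± 0.34, Oasl1 at 0.53 ± 0.33, Oasl2 at 0.51 ± 0.33, Irf7 at 0.51 ± 0.29 and Parp14 at 0.48 ± 0.26 lay above normal without passing the test. These depended on single arrays. Without normal replicate 3, Usp18 (0.99), Oasl1 (0.91), Oasl2 (0.82) and Parp14 (0.73) were called higher and the set had 9 higher members. Without day 7 replicate 3, Usp18 (0.99), Gbp3 (0.94), Ifit1 (0.85) and Irf7 (0.74) were called higher, again 9 in all. Both arrays were picked for their values, so the calls without them are a description.

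The 2 injury groups lie on the same slide and were compared directly. From day 4 to day 7, 6 members rose, 17.6% of the set against 13.2% of all genes, and 2 fell, 5.88% against 20.7%. Groups did not overlap for 5 higher members and 1 lower, against 12.3% and 21.9% of all genes. The median of the members was 0.14, against -0.07 for all genes. Marker genes moved between the days too, with 13.2% of all genes higher and 20.7% lower. Endothelial markers were higher for 7 of 20 and lower for 1, mesangial higher for 9 of 15 and parietal higher for 5 of 6. Podocyte markers were lower for 12 of 17 and higher for 2, and leukocyte markers higher for 1 of 21 and lower for 2. Their part in the changes of the members was not tested. Quantile normalization gave 7 higher and 1 lower member, and normexp with quantile normalization 8 and 1. Irf1 fell by 1.38 on the log2 scale, with every day 7 array (4.83 to 5.39) below every day 4 array (5.73 to 7.21) and an adjusted p of 0.0024 in limma. Isg15 rose by 1.11 ± 0.30 (adjusted p = 0.0102, limma), from 3.14 to 4.28 up to 4.33 to 5.31. Dhx58 rose by 1.35 ± 0.26 (adjusted p = 0.00133, limma), Oas1a by 0.89 ± 0.26 (adjusted p = 0.0158, limma) and Ddx58 by 0.64 ± 0.12 (adjusted p = 0.00104, limma), all 3 without overlap. Among the podocyte groups, Irf1 was thus highest at day 4, whereas Isg15 and Ddx58 were highest at day 7.

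Further calls between the days were fragile. Usp18 at 0.96 ± 0.33 (adjusted p = 0.034, limma) was lost in 9 of 19 other settings. Irf7 at 0.81 ± 0.29 (adjusted p = 0.0403, limma) was lost in 14 of 18, and only 3 of its 4 day 4 arrays were well above background. Irgm2 at -1.06 ± 0.39 (adjusted p = 0.0498, limma) was lost in 13 of 19, and stood at -0.55 without day 4 replicate 2. Oasl1 and Oasl2, at 0.87 ± 0.33 and 0.88 ± 0.33, missed the threshold with adjusted p of 0.0557 and 0.054 (limma) and passed it with quantile normalization.

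**Figure D3:**
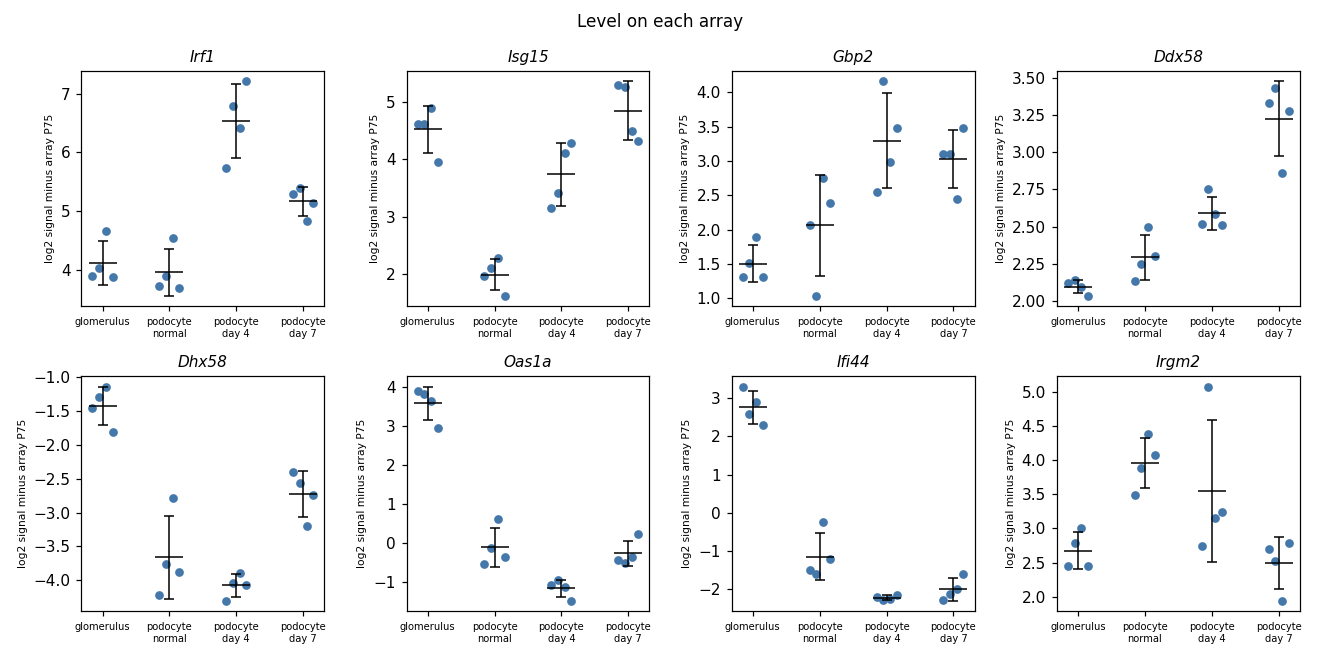
Level on each array (vertical axes, log2 signal minus the 75th percentile of the array, P75) for 8 members in the 4 groups, with points for arrays in replicate order and black bars for the mean ± SD of 4 arrays. Irf1 is highest at day 4 (5.73 to 7.21), Isg15 at day 7 reaches the glomerular values, Oas1a and Ifi44 stay far below them, and the day 4 points of Irgm2 hold a single high array at 5.07.

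The members varied together between arrays of the same group. At day 4, replicate 2 was the highest of the 4 arrays for 28 of the 34 members (82.4%), against 33.9% of all genes tested, and for all 6 GTPases. Among normal podocyte arrays, replicate 3 was the highest for 26 members (76.5%), against 23.4% of all genes. At day 7, replicate 3 was the lowest for 28 members (82.4%), against 18.3% of all genes. In glomerular RNA, replicate 4 was the lowest for 29 members (85.3%), against 31.7% of all genes. These arrays were picked for their values, so the shares are a description.

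The genes behind these shifts were not the same in each group. At day 4, replicate 2 stood apart mainly in GTPases, at 5.07 for Irgm2, at 4.24 for Igtp and at 3.24 for Irgm1 (1.37 to 1.78 on the other arrays). Isg15 was not raised on that array, at 3.41 within a range of 3.14 to 4.28. Among the normal arrays, replicate 3 stood apart mainly in Oasl1 (-1.01 against -2.98 to -1.81), Rsad2 (0.48 against -1.32 to -0.81), Cmpk2 (-0.45 against -1.82 to -1.52) and Ifi44 (-0.25 against -1.61 to -1.21). The mean of 21 leukocyte markers, relative to the normal podocyte mean, was highest on normal replicate 3 of its group, at 0.57 against -0.28 to -0.11. On day 4 replicate 2 it was 0.24, within the -0.24 to 0.92 of the other day 4 arrays, and the endothelial mean was the lowest of the day 4 arrays, at -0.88. The part of these markers in the shifts was not tested.

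**Figure D4:**
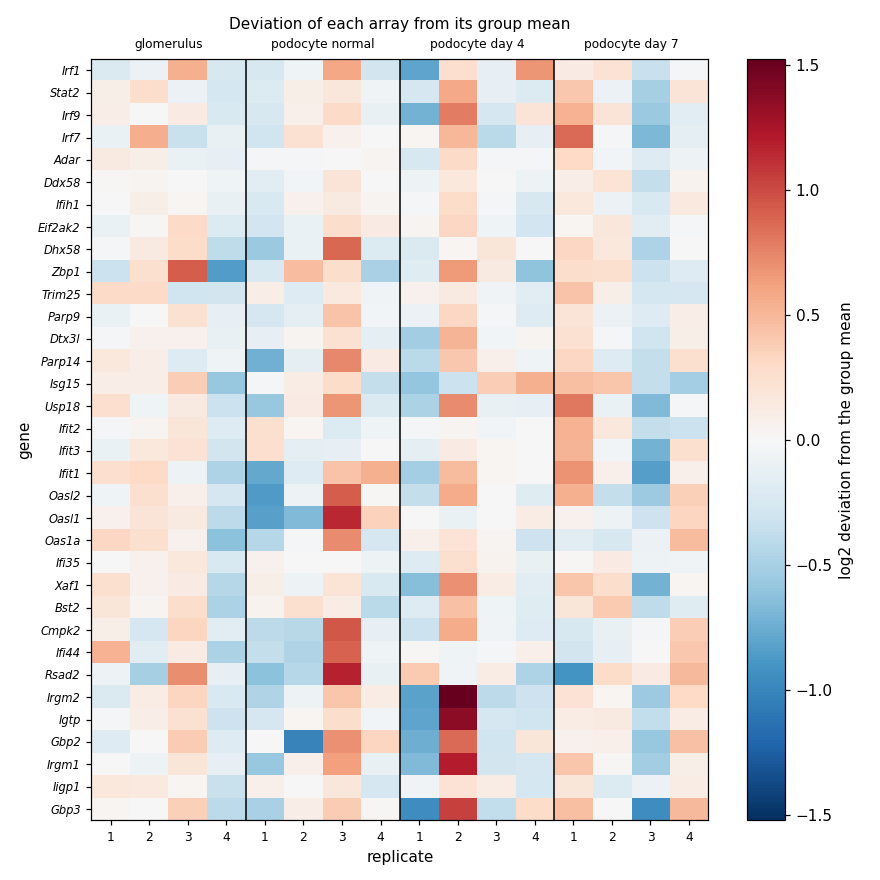
Deviation of each array (columns, 4 replicates in each of 4 groups) from the mean of its group for the 34 members (rows, ordered by role), as log2 differences in colour from blue (lower) through white to red (higher). Columns stand out as wholes: day 4 replicate 2 and normal podocyte replicate 3 are mostly red, and day 7 replicate 3 and glomerular replicate 4 mostly blue.

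**Figure D5:**
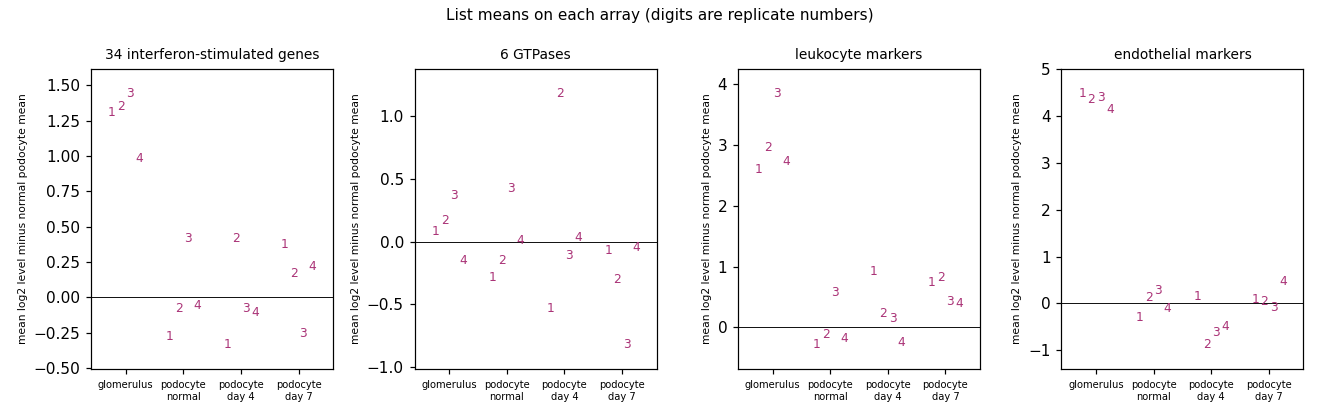
Mean level of 4 gene lists on each array (vertical axes, mean log2 level minus the mean of the normal podocyte arrays), with digits for the replicate numbers in the 4 groups (horizontal axes). The mean of the 34 members spans 0.98 to 1.44 in glomerular RNA and -0.33 to 0.42 on the podocyte arrays, the GTPases reach 1.18 on day 4 replicate 2, and leukocyte and endothelial markers are above 2.5 only in glomerular RNA.

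Other genes of the pathway were read from lists beside the members. The receptor genes Ifnar1, Ifnar2, Ifngr1 and Ifngr2 were well above background on all 16 arrays. In uninjured mice Ifngr1, the ligand-binding chain of the interferon gamma receptor, was higher in podocyte RNA at 1.58 ± 0.24 and Ifngr2, its partner chain, lower at -1.25 ± 0.16. Ifnar1, a chain of the type I receptor, was higher at 0.63 ± 0.12. Of the 10 receptors and transducers tested, 5 were higher and 3 lower (50% and 30%, against 51.6% and 27.5% of all genes). At day 4 none was higher and 2 (20%) were lower, against 12.3% and 19.9% of all genes, Ifnar1 at -0.45 ± 0.12 and Ifnar2 at -0.41 ± 0.13. At day 7, 3 were higher and 2 lower (30% and 20%, against 21.6% and 36.7%): Ifngr2 rose from 1.13 to 1.47 on the normal arrays to 2.57 to 2.87, a 2.82-fold difference with no overlap.

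Of 13 genes that sense nucleic acid and induce interferon, 1 was higher and 2 lower at day 4 (7.69% and 15.4%, against 12.3% and 19.9% of all genes), and 5 were higher and 4 lower at day 7 (38.5% and 30.8%, against 21.6% and 36.7%). Cgas, which encodes the sensor of cytosolic DNA, rose by 2.61 ± 0.29 at day 7 and Sting1, its adaptor, by 1.77 ± 0.20. Traf3, a signalling adaptor, rose by 1.62 ± 0.14. Irf5, an interferon regulatory factor of immune cells, was at -5.81 to -4.20 on the normal podocyte arrays, only 1 of them well above background, and was well above background on all 4 day 7 arrays, at a mean of -2.11, so the size of its rise is rough. In uninjured mice Sting1 (-2.80 ± 0.20) and Cgas (-2.41 ± 0.29) were lower in podocyte than in glomerular RNA. Among leukocyte markers at day 7, Ptprc (-5.69 to -4.57) and Tyrobp (-4.64 to -3.52) lay no higher than on the highest normal podocyte array (-4.27 and -2.48), while C1qa was at -4.57 to -3.52 (normal -7.53 to -6.19) and S100a8 at -4.44 to -0.04 (normal -7.12 to -3.36). The mean of the list was 0.39 to 0.82 above the normal podocyte mean, with normal arrays at -0.28 to 0.57. The leukocyte list had 5 of 21 genes higher and 1 lower at day 7 (summed level 88.6 to 120, normal 81.2 to 93.5), and its part in these changes was not tested.

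A further 47 interferon-stimulated genes outside the set were tested. In uninjured mice 26 were lower in podocyte RNA and 6 higher (55.3% and 12.8%, against 27.5% and 51.6% of all genes), with a median of -1.47. At day 4, 4 were higher and 6 lower (8.51% and 12.8%, against 12.3% and 19.9%), and at day 7, 7 were higher and 7 lower (14.9% each, against 21.6% and 36.7%). Isg20, an RNA exonuclease, had the largest rise of the list at both times. It stood at -2.93, -2.54, -2.69 and -3.04 on the normal arrays, at 2.65, 2.04, 2.55 and 2.28 at day 4 and at 1.95, 1.56, 1.73 and 1.24 at day 7, differences of 5.18 ± 0.20 and 4.42 ± 0.20 with no overlap. Ifit1bl1, an IFIT-like gene, was at -5.22 to -4.43 on the normal arrays, only 2 of them well above background, and at -1.58 to -0.78 and -2.52 to -1.46 at the 2 times, so the size of its rise is rough. Ifitm1, a membrane restriction factor, rose by 1.45 ± 0.29 and 0.90 ± 0.29. The 8 tested brakes on interferon signalling had 3 higher (37.5%, against 12.3% of all genes) and none lower (against 19.9%) at day 4, and 3 higher and 1 lower at day 7 (37.5% and 12.5%, against 21.6% and 36.7%), with Ptpn6, a tyrosine phosphatase of blood cells, at 1.07 ± 0.21 and 1.85 ± 0.21.

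Interferon genes themselves were dim. Of 21 listed, 16 had a probe and 8 were tested. Ifnb1 and Ifng were not tested, being well above background on at most 1 of 16 arrays. Of the 8, 6 were called higher at day 4 (median 0.77) and 8 at day 7 (median 1.22), led by Ifna12, whose tested probe was not well above background on any uninjured array and whose values of -6.96 to -5.28 on the normal arrays became -4.06 to -3.15 at day 4 and -3.93 to -3.07 at day 7. Genes dim on the normal arrays, such as Ifna2, Ifna11 and Ifna12, entered the test through groups where they are brighter, so these counts and medians support nothing. Of the 5 genes above background on all 16 arrays, 3 were called higher at day 4 and 5 at day 7. Interferon alpha genes are near-identical copies, so their probes may share targets. With normexp and quantile normalization the medians were 0.16 and 0.35, with 2 and 7 genes called. In a comparison added after seeing the data, among all 3622 genes with a mean level below -2, 20.4% were called higher at day 4 and 32.6% at day 7, against 12.3% and 21.6% of all genes. These dim genes passed the same filter on probes, so their shares have the same limit and support nothing either.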

How the data were processed

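Gene expression was measured on 16 single-colour arrays, 4 per group. The deposited scanner files, made with Agilent Feature Extraction 11.5.1.1 per the submitters' processing notes, give a processed intensity per spot that is already background-subtracted, and flag columns. The authors also deposited a table on the log2 scale (39430 probes). In it each column equals the log2 processed intensity of an array minus a constant whose basis is not given in the sources used here (column medians -3.168 to -2.506), and 6 columns match another replicate of the same group in the scanner files; it served as an alternative.

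Control spots and outlier-flagged spots were left out, spots of a probe averaged, and the log2 processed intensity scaled to the 75th percentile of each array. A probe was kept if all 4 arrays of some group had it well above background, and the kept probe with the highest mean stood for its gene. Probe accessions were named through RefSeq (GRCm38.p6). Groups were compared with limma 3.58.1 in R 4.3.3 (16 arrays, 12 residual degrees of freedom, called at an adjusted p under 0.05), a procedure tested on simulated data. Replicate numbers pair podocyte with glomerular arrays (deviations correlate at 0.423 to 0.505 and each is best matched by its own number). In the other comparisons, only replicates 3 and 4 of day 7 against normal were best matched by their own number (0.055 and 0.486). Slide could not be used as a block for LMB2, because each slide holds uninjured or LMB2 arrays only. Every array value is given for members called with the largest differences within their role, and up to 4 genes of each other list. Members, lists and this rule were chosen with earlier results of these data known. Alternatives were normexp background (offset 50), quantile or median scaling, other probe filters, the mean of probes, 8-array fits, the replicate block, the authors' table and leaving out arrays. Some genes of the lists are not reported here by name.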

Additional observations from a re-analysis of the deposited data

Results flagged for a closer look

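Of 136 groups of 4 arrays examined over the 34 members, 2 held an array far from the other 3, where chance flags about 1 in 20 groups. Stat2 stood at 1.95 on day 4 replicate 2 and at 1.12 to 1.26 on the other day 4 arrays. Igtp stood at 1.74 on day 7 replicate 3 and at 2.23 to 2.25 on the other day 7 arrays.

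Podocyte RNA differed between day 7 and day 4 after LMB2 for 8 members by the direct test of the days (limma, adjusted p under 0.05). The day 7 level exceeded the day 4 level by 1.35 for Dhx58, 1.11 for Isg15 and 0.96 for Usp18. It did so by 0.89 for Oas1a, 0.81 for Irf7 and 0.64 for Ddx58. For Irf1 and Irgm2 it was lower, at -1.38 and -1.06. The calls of Irf7, Irgm2 and Usp18 were lost in 14 of 18, 13 of 19 and 9 of 19 other settings. Those of Isg15 and Oas1a were lost in 1 of 19 each.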

How the results depend on the processing

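Of the 48 calls of members over the 4 comparisons, 33 were made in every setting run and 15 were lost in some; no member that was called changed direction. With each array centred on its median, the median of all genes moved from 0.38 to 0.70 for podocyte against glomerular RNA, from -0.12 to -0.39 at day 4 and from -0.14 to -0.47 at day 7; 9 members were then higher in podocyte than in glomerular RNA, and 10 were lower at day 4 and 10 at day 7. With no filter on dim probes the median of all genes at day 7 was 0.0479 instead of -0.14. The mean of the probes of a gene gave 3 lower members at day 4. The replicate block gave 3 higher and 22 lower members for podocyte against glomerular RNA. It gave 3 lower at day 4, 3 higher at day 7, and 3 higher and 1 lower between the days. Outside the first comparison, arrays of the same number correlated at -0.412 to 0.486. Only replicates 3 and 4 of day 7 against normal were best matched by their own number there. For day 7 against day 4, 1 member was lower with quantile normalization, normexp with quantile normalization, no probe filter, the 8 arrays alone or the authors' table. Leaving out each array in turn gave 2 to 3 higher and 18 to 20 lower members for podocyte against glomerular RNA, 2 to 4 and 4 to 8 at day 4, 4 to 9 and 4 to 6 at day 7, and 4 to 7 and 1 to 3 between the days. The cause of these shifts was not tested, beyond the fewer arrays or degrees of freedom of the last settings. Low signal limits Irf7 and the interferon genes, some of whose arrays were not well above background. Replicate 4 of normal podocytes and replicate 1 of day 4, left out together because of tubule markers, gave 4 higher and 4 lower members at day 4. Day 7 replicate 4 had a higher mean of those markers (2.11, against 1.02 and 1.46); without it 4 members were higher and 6 lower at day 7, and 4 and 1 between the days.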
